A study of Mus musculus with 25 samples.

Results

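The genes described here encode 12 families of lipid enzymes and lipid droplet proteins: acyl-CoA synthetases (Acsl), acyl-CoA thioesterases (Acot), elongases (Elovl), desaturases (Fads and Scd), lysophospholipid and lysophosphatidic acid acyltransferases (Lpcat and Agpat), lipins (Lpin), diacylglycerol and monoacylglycerol acyltransferases (Dgat and Mogat), perilipins (Plin) and patatin-like phospholipases (Pnpla). Members were all genes whose symbol in the deposited table begins with one of these names followed by a digit, which gave 64 of 25006 entries. RNA had been sequenced from 6 libraries that the labels call enriched CD8+ T cells of tumour tissue from C57BL/6 mice. All mice carried tumours of E0771, a mouse mammary carcinoma line. In 3 libraries (anti-CD73) the mice had received an antibody against CD73, the cell-surface enzyme that forms adenosine from AMP, every 3 days, and 3 libraries were controls (con). The sources used here do not give what the controls received, the age of the mice or how many animals made up a library. The p-values thus rest on the spread among these libraries, which may be technical. The other 19 samples of the series were not analysed here.

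A fatty acid is used only after an acyl-CoA synthetase has joined it to coenzyme A. The acyl-CoA can then be lengthened by elongases, given double bonds by desaturases, released again by thioesterases, or attached to a glycerol backbone to make phospholipids and triglyceride. Triglyceride is stored in droplets coated by perilipins and is cut out of them by lipases. Polyunsaturated acyl chains in phospholipids, placed there with the help of Acsl4 and Lpcat3, are the substrate of the lipid peroxidation that marks ferroptosis. In tumours, lipid droplets are known from cancer cells and from myeloid cells such as macrophages and neutrophils.

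Reads recovered from the deposited values ranged from 10180624 to 17161679 per library. Genes of several cell types were present. The 12 measured T cell genes summed to between 264 and 851 normalized counts in the controls and between 437 and 801 after anti-CD73, against 10545 to 20351 and 17739 to 29666 for 14 macrophage genes. All 12 T cell genes had reads, and Cd8a ranged from 7.60 to 122 in the controls and from 35.0 to 90.2 after anti-CD73. Neutrophil genes (9) summed to 5829 to 7877 and 8538 to 15159, and erythroid genes (7) to 31661 to 241987 and 34536 to 127484. Control replicate 1 stood apart: its macrophage sum was 20351, above the 13197 and 10545 of the other controls and above the lowest anti-CD73 library. Its erythroid sum of 31661 was below the 241987 and 240283 of the other controls. Its T cell sum was 851, against 264 and 329, and its endothelium sum 776, against 257 and 204. Values of named genes are therefore given with and without control replicate 1 where leaving it out changed a call or a direction or moved the log2 fold change by over 1.5 times. Without it, however, each treated library exceeded both remaining controls in the T cell, macrophage and endothelium sums. Each treated library also lay below both remaining controls in the erythroid and simple epithelium sums. The simple epithelium sums were 3673 and 4663 in control replicates 2 and 3 and 2127 to 2704 after anti-CD73. The part of these sums in calls made without control replicate 1 was not tested. In such bulk samples, fewer cells of a type and less RNA per cell cannot be told apart. Of 13 adipocyte genes (239 to 545 in sum in the controls and 388 to 454 after anti-CD73, mostly from Lipe and Fabp4), the defining ones were at or near 0: Adipoq had 1 read in all 6 libraries together, Lep and Cidec had 5 each, and Adrb3 and Pck1 had 0.

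Of the 64 members, 41 had a mean of at least 10 normalized counts over the 6 libraries and were tested with all 12262 such genes. The heat map of the tested members shows each one's level in each library, relative to its own mean. After anti-CD73, the enzymes of the last step of triglyceride synthesis (Dgat1, Dgat2), the droplet coat protein Plin2, the acyltransferase Lpcat2 and the lysophospholipase Pnpla7 lay higher in every treated library than in any control. So did the acyltransferase Agpat1 and the thioesterases Acot2 and Acot11. The elongases Elovl1, Elovl6 and Elovl7, the synthetases Acsl1 and Acsl3, the lipin Lpin1, the acyltransferase Agpat5 and the phospholipase Pnpla8 lay lower in the same sense. No member passed the test: by limma with Benjamini-Hochberg adjustment over all genes, 0 of 41 had an adjusted p under 0.05, as 0.0% of all genes did, and edgeR's quasi-likelihood test also called 0. At an unadjusted p under 0.05 there were 10 members by limma and 10 by edgeR, 24.4% of those tested, against 15.5% and 15.2% of all genes. Of the 10 by limma, 5 were higher (8.69% of all genes were higher at this level) and 5 lower (6.82%). Groups did not overlap for 16 members, 8 higher (11.5% of all genes) and 8 lower (12.0%), which together is 39.0% of members against 23.5% of all genes. The log2 fold change was above 0 for 18 of 41 members (43.9%, against 50.5% of all genes). Its median was -0.054 over the members and 0.0039 over all genes.

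**Figure D1:**
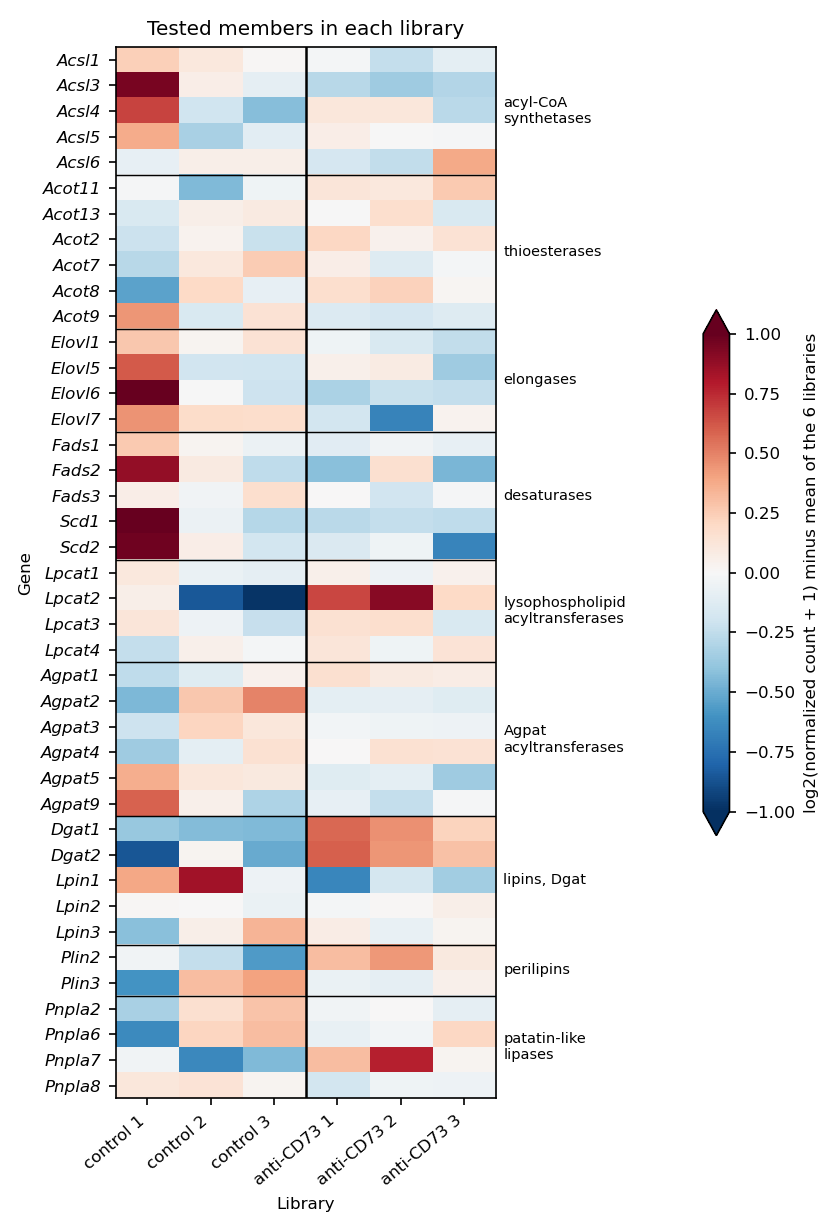
Heat map of the 41 tested members (rows, by role) in the 6 libraries (columns); colour is log2(normalized count + 1) minus the gene's mean over the 6 libraries, and 1 cell lies past the colour limit of 1. Dgat1, Dgat2, Plin2, Lpcat2 and Pnpla7 are above their own mean in all 3 anti-CD73 libraries, and control replicate 1 is the highest library for Scd1, Scd2, Elovl6 and Acsl3.

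Without control replicate 1, limma passed 7 members. Those higher were Dgat1, Dgat2, Plin2, Lpcat2 and Pnpla7 (5 of 41, 12.2%, against 11.9% of all genes), and those lower were Agpat2 and Plin3 (2 of 41, 4.88%, against 10.3%). The share of members called was thus near that of all genes for higher calls and below it for lower calls. edgeR without that library called 7 members as well (12.3% of all genes were called higher and 9.7% lower). DESeq2 on recovered reads of all 6 libraries called 3 members, Dgat1, Dgat2 and Lpcat2, all higher (2.85% of all genes were called higher and 1.93% lower). Control replicate 1 was the highest of the 6 libraries for 16 members (39.0%, against 30.7% of all genes) and the lowest for 12 (29.3%, against 32.1%).

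Promoter sequences of 3 members that lay higher and 2 that lay lower are shown as a reference for the genes below, since they lay on either side of the comparison. They are RefSeq windows of GRCm38.p6 (the assembly of mm10), from 250 bases before to 50 bases after an annotated start, of which the part up to 30 bases after the start is printed, 5′ to 3′ on the gene's own strand. Capitals mark an E-box (CACGTG) or a CCAAT box (CCAAT, or ATTGG where it is on the other strand), searched on both strands.
Plin2 (chr4:86670030-86670309, minus strand): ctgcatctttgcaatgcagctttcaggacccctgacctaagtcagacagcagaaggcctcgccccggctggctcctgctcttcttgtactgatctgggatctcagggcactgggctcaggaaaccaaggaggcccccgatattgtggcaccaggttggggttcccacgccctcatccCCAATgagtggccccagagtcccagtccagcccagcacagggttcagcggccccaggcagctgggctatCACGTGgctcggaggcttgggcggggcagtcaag
Lpcat2 (chr8:92855083-92855362, plus strand): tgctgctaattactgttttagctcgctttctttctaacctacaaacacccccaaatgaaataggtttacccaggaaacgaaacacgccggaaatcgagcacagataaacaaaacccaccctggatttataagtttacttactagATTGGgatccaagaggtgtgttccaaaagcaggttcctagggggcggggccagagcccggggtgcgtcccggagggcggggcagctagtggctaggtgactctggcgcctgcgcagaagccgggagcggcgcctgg
Pnpla7 (chr2:24975783-24976062, plus strand): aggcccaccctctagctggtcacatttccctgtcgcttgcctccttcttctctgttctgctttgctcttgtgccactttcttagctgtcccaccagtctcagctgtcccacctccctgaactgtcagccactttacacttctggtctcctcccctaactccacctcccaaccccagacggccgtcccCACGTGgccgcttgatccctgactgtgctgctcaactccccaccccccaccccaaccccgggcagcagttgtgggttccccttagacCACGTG
Acsl3 (chr1:78657575-78657854, plus strand): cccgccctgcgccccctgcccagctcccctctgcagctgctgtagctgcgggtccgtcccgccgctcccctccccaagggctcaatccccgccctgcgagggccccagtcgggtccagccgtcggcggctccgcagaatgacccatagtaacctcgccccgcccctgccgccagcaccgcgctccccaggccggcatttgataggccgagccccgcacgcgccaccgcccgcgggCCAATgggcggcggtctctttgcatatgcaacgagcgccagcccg
Elovl1 (chr4:118427843-118428122, plus strand, 1 of 2 windows): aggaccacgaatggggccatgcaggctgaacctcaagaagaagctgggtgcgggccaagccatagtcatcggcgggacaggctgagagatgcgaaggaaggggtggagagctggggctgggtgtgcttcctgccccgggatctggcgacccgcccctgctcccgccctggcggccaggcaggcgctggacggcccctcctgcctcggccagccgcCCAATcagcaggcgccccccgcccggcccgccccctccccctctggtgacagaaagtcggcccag

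The window of Plin2 held an E-box that begins 4 bases before the start and a CCAAT box that begins 73 bases before it. Pnpla7 had 2 E-boxes, 1 on each side of its start, and Lpcat2, Acsl3 and this Elovl1 window had 1 CCAAT box each. The windows of Lpin1, Elovl6 and Elovl7 and the other window of Elovl1, all of members that lay lower, held neither motif and are not shown. Of the 45 windows found for 34 of the 41 tested members, 6 held an E-box (13.3%, against 7.15% of all 32851 windows) and 20 a CCAAT box (44.4%, against 37.4%). The E-box windows were those of Acot11, Elovl5, Lpin2, Lpin3, Plin2 and Pnpla7, and the groups overlapped for Elovl5, Lpin2 and Lpin3. Dgat1, Dgat2, Scd1, Scd2 and Agpat5 were among the members without a window, so their promoters were neither searched nor printed. The sterol regulatory element (TCACNCCAC) occurred in 1 member window, that of Acsl1 (1.24% of all windows), and the PPAR element, a direct repeat spaced by 1 base, in 0 (0.040% of all windows). A match is a run of letters and not a measured binding site.

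Triglyceride synthesis ends with the diacylglycerol acyltransferases, and both lay higher after anti-CD73. Dgat1, which also esterifies fatty acids taken up or released inside the cell (ENSMUSG00000022555, mm10 chromosome 15, 76502012 to 76512021), stood at 525, 507 and 503 normalized counts in control replicates 1, 2 and 3 and 1019, 941 and 798 in anti-CD73 replicates 1, 2 and 3. Its controls lay close together, and every treated library was well above them. The means were 512 ± 11.8 (SD, n = 3) in controls and 919 ± 112 (SD, n = 3) in treated libraries, a log2 fold change of 0.84 (SE 0.13, 95% interval 0.54 to 1.14, limma adjusted p = 0.141), which is 1.79-fold. That adjusted p was the smallest over all 12262 genes, a value other genes shared. Dgat2, the structurally unrelated enzyme tied to newly made fatty acids (ENSMUSG00000030747, mm10 chromosome 7, 99153663 to 99182713), had 81.2, 151 and 104 in the controls and 225, 201 and 182 after anti-CD73. The groups did not overlap, and the means were 112 ± 35.5 (SD, n = 3) in controls and 203 ± 21.5 (SD, n = 3) in treated libraries (log2 fold change 0.89, SE 0.25, adjusted p = 0.183). Without control replicate 1, in which Dgat2 was lowest, the log2 fold change was 0.68 (adjusted p = 0.0325), and that of Dgat1 was 0.86 (adjusted p = 0.00291). DESeq2 gave an adjusted p of 1.25e-05 for Dgat1 and 0.0393 for Dgat2.

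Lipins are phosphatidate phosphatases that supply the diacylglycerol for this step. Lpin1 (ENSMUSG00000020593, mm10 chromosome 12, 16535669 to 16653903), which also acts with nuclear receptors on fat oxidation genes, went the other way, with 109.7, 151 and 80.8 in the controls and 53.0, 74.1 and 65.8 after anti-CD73. All treated libraries lay below all controls, by a log2 fold change of -0.78 (SE 0.27, adjusted p = 0.243, and -0.78 with adjusted p = 0.0776 without control replicate 1). Lpin2 hardly varied, at 2093, 2084 and 1986 in the controls and 2053, 2090.1 and 2157 after anti-CD73. Its interval, from -0.19 to 0.26 on the log2 scale, was the narrowest of the 41 tested members. Lpin3 had 186, 258 and 314 in the controls and 262, 236 and 253 after anti-CD73, and its controls spanned the whole treated range (log2 fold change 0.017, SE 0.21, or -0.19 without control replicate 1). The monoacylglycerol acyltransferases and a Dgat2 relative were scarce: Mogat1 had 13 reads and Mogat2 21 reads in all libraries, and Dgat2l6 had 2.

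**Figure D2:**
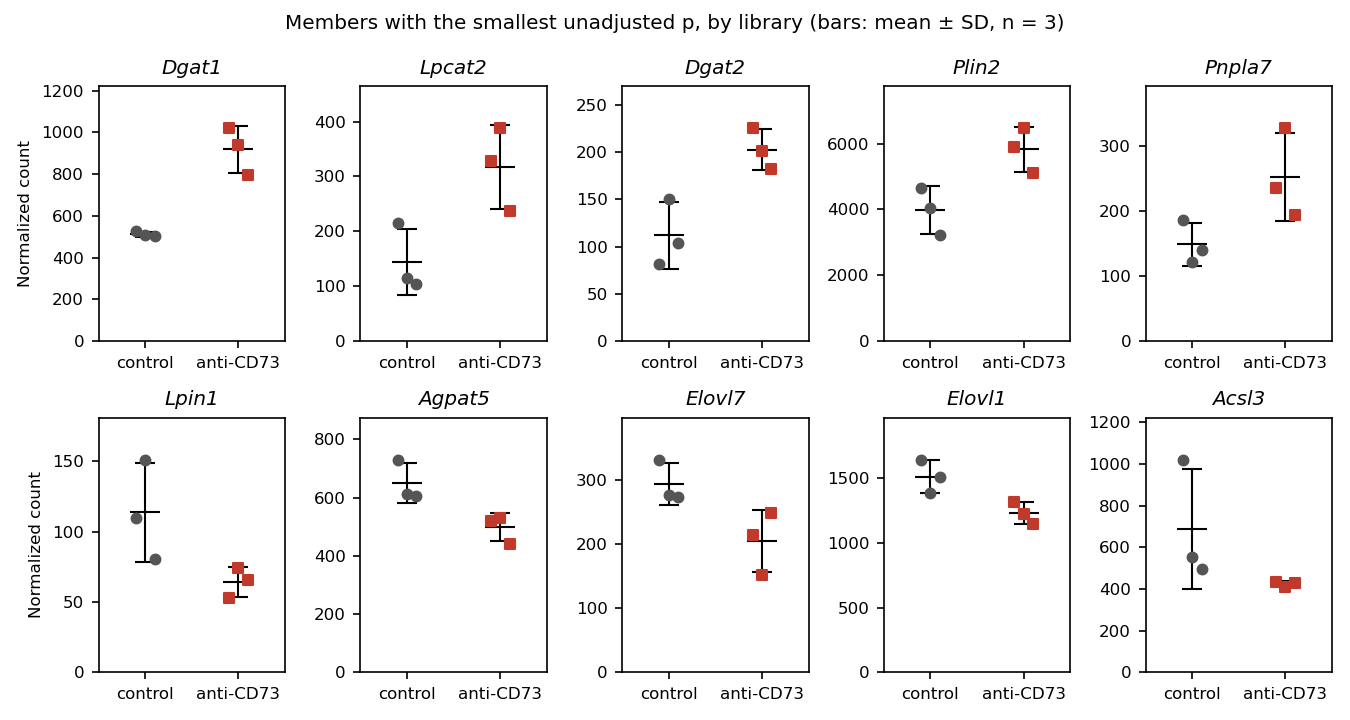
Normalized counts (y axis, from 0) of the 10 members with the smallest unadjusted p in the 3 control libraries (circles) and 3 anti-CD73 libraries (squares), with mean and SD. The 10 were picked by p from these same values, so the lack of overlap between their groups is no separate result (23.5% of all genes do not overlap). The 3 Dgat1 controls lie between 503 and 525.

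Perilipins coat the droplet surface. Plin2, the coat protein of most cells outside fat tissue, which is degraded when no lipid is there to bind it (ENSMUSG00000028494, mm10 chromosome 4, 86626910 to 86670217), had 4661, 4046 and 3224 in the controls and 5907, 6459 and 5102 after anti-CD73. Each treated library exceeded each control. The means were 3977 ± 721 (SD, n = 3) in controls and 5823 ± 682 (SD, n = 3) in treated libraries, a log2 fold change of 0.56 (SE 0.16, adjusted p = 0.193) or 1.47-fold, and without control replicate 1 it was 0.68 (adjusted p = 0.00677). Plin3, which moves from the cytosol onto young droplets, stood at 1158, 2168 and 2315 in the controls and 1671, 1649.6 and 1818 after anti-CD73, with control replicate 1 as the lowest and the other controls as the highest of the 6. Its log2 fold change was -0.071 (SE 0.25, adjusted p = 0.92) with all libraries and -0.39 (adjusted p = 0.012) without that control. The perilipins of fat cells and of oxidative tissue were at or near 0: Plin1 had 3 reads in all libraries, Plin4 had 5 and Plin5 had 22. All 3 reads of Plin1 and all 5 of Plin4 were from anti-CD73 libraries, numbers too low to compare.

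Patatin-like proteins include the lipase that opens the droplet and several lysophospholipases. Pnpla7, a lysophospholipase of the endoplasmic reticulum and droplet surface (ENSMUSG00000036833, mm10 chromosome 2, 24975990 to 25054072), had 186, 122 and 139.9 in the controls and 236, 327 and 194 after anti-CD73. The groups were apart, though only just, and the means were 149 ± 33.1 (SD, n = 3) in controls and 253 ± 67.9 (SD, n = 3) in treated libraries (log2 fold change 0.75, SE 0.25, adjusted p = 0.226, or 0.91 with adjusted p = 0.0177 without control replicate 1). Pnpla2, the adipose triglyceride lipase that makes the first cut in stored triglyceride, had overlapping groups, with 898, 1258 and 1369 in the controls and 1099.98, 1129.7 and 1059 after anti-CD73. Its treated libraries lay between control replicate 1 and the other controls (log2 fold change -0.077, 95% interval -0.47 to 0.32, or -0.26 without control replicate 1). Pnpla6, the neuropathy target esterase and closest relative of Pnpla7, also had its treated libraries between control replicate 1 and the other controls. It had 403, 727 and 778 in the controls and 596, 616 and 722 after anti-CD73 (log2 fold change 0.072, SE 0.25, or -0.23 without control replicate 1). Pnpla8, a calcium-independent phospholipase of mitochondria and peroxisomes, had 1113, 1133 and 1045 in the controls and 905, 997 and 994 after anti-CD73, so that all treated values lay below all controls by a log2 fold change of -0.18 (SE 0.11, adjusted p = 0.446). Pnpla3 had 1 read, Pnpla1 had 10 and Pnpla5 had 0.

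The lysophospholipid acyltransferases that remodel phospholipids had all 4 tested members above 0, from 0.028 to 1.18; Lpcat1 turned to -0.0086 without control replicate 3. Lpcat2, which makes platelet-activating factor in inflammatory cells and is also found on droplets (ENSMUSG00000033192, mm10 chromosome 8, 92855313 to 92919279), had 214, 114 and 104 in the controls and 328, 388 and 237 after anti-CD73. Its lowest treated library was just above control replicate 1 and far above the other controls. The means were 144 ± 61.0 (SD, n = 3) in controls and 317 ± 76.1 (SD, n = 3) in treated libraries, a log2 fold change of 1.18 (SE 0.31, adjusted p = 0.178), which was the largest difference among the tested members, and 1.51 (adjusted p = 0.00291) without control replicate 1. Lpcat3, the enzyme that puts arachidonate into phospholipids, had 787, 699 and 617 in the controls and 804, 813 and 654 after anti-CD73, with overlapping groups and a 95% interval of -0.23 to 0.45 around 0.11 (0.20 without control replicate 1). Lpcat4 had 898, 1101 and 1045 in the controls and 1154, 1031 and 1165 after anti-CD73 (log2 fold change 0.14, SE 0.12, or 0.056 without control replicate 1). Lpcat1, the surfactant lipid enzyme, had 1096, 973 and 956 in the controls and 1053, 979 and 1049 after anti-CD73 (log2 fold change 0.028, SE 0.11, or 0.089 without control replicate 1). Groups overlapped for both. Lpcat2b had 0 reads.

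Across the libraries, Plin2 and Lpcat2 had the order of the summed macrophage genes except that control replicate 1 and anti-CD73 replicate 3 changed places, and Pnpla7 also had control replicates 2 and 3 exchanged, as the plot of members beside macrophage markers shows. Macrophage sums were 20351, 13197 and 10545 in the controls and 24931, 29666 and 17739 after anti-CD73, and all 14 macrophage genes had a log2 fold change above 0 (median 0.70, 0 called). In control replicate 1, whose macrophage sum exceeded that of anti-CD73 replicate 3, Plin2 stood at 4661 against 5102, Lpcat2 at 214 against 237 and Pnpla7 at 186 against 194. Dgat1 stood at 525 against 798 and Dgat2 at 81.2 against 182 in the same pair of libraries. Neutrophil sums were 5829, 7877 and 6797 in the controls and 12386, 15159 and 8538 after anti-CD73, higher in each treated library than in each control. Dgat2 had the order of the neutrophil sums except that anti-CD73 replicates 1 and 2 changed places. In Dgat1 those replicates also changed places, and control replicate 1, lowest in the neutrophil sum, was the highest control. Of the 8 tested neutrophil genes, 6 had a log2 fold change above 0 and 2 below. Fibroblast genes (11) summed to 4496 to 5594 in the controls and 6297 to 7454 after anti-CD73, with 7 of the 10 tested above 0 and 3 below. Sums overlapped for endothelium (204 to 776 and 558 to 871), simple epithelium (1961 to 4663 and 2127 to 2704) and skeletal muscle (123 to 261 and 249.9 to 272), and stratified epithelium and sebaceous gland genes summed to at most 18.5, with Krt1, Lor and Awat1 at 0. No marker gene of any list was called by limma with all 6 libraries, a fit that called 0.0% of all genes. Calls of marker genes were not counted in the other fits. The part of these cell types in the results was not tested.

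**Figure D3:**
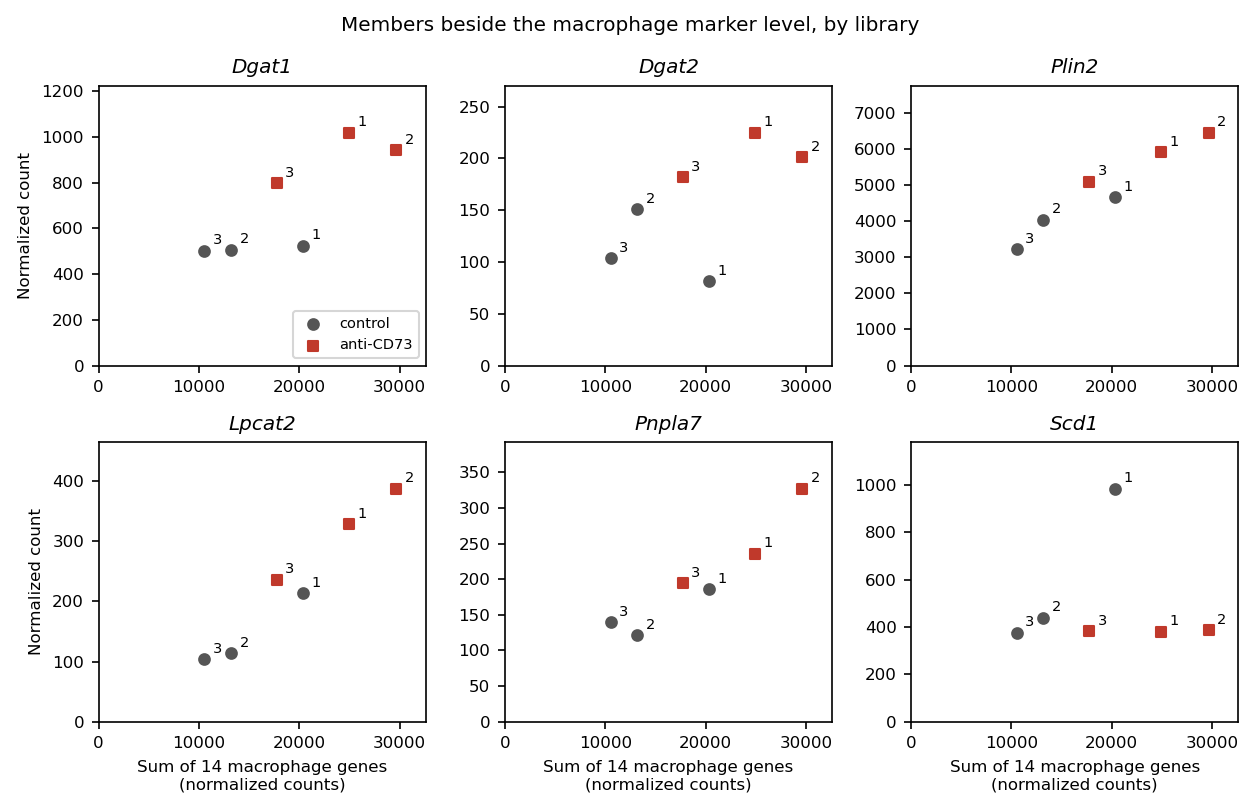
Normalized counts of 6 members (y axis) against the summed normalized counts of 14 macrophage genes (x axis) in the 3 control (circles) and 3 anti-CD73 libraries (squares), numbered by replicate. Control replicate 1 and anti-CD73 replicate 3 have macrophage sums of 20351 and 17739, Dgat1 at 525 and 798 and Scd1 at 985 and 384. These 2 libraries also differ in the neutrophil sum (5829 and 8538) and the T cell sum (851 and 437), and the part of cell types was not tested.

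Long-chain acyl-CoA synthetases trap fatty acids in the cell and steer them to different fates. Acsl3, which sits on the endoplasmic reticulum and on nascent droplets (ENSMUSG00000032883, mm10 chromosome 1, 78657825 to 78707743), had 1018, 551 and 495 in the controls and 435, 412 and 429.8 after anti-CD73. All treated libraries were lower than all controls, but control replicate 1 alone was far above the rest. The log2 fold change was -0.62 (SE 0.26, adjusted p = 0.32) with that control and -0.30 (adjusted p = 0.07) without it. Acsl1, the synthetase of oxidative and fat tissue that is also induced in activated macrophages, had 569, 517 and 485 in the controls and 473, 408 and 449 after anti-CD73 and again groups that did not overlap (log2 fold change -0.24, SE 0.13, adjusted p = 0.417).

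Acsl4, which prefers arachidonate and other polyunsaturated acids and is required for many forms of ferroptosis, had 1366, 746 and 636 in the controls and 929, 924 and 708 after anti-CD73. Control replicate 1 was the highest library and control replicate 3 the lowest, so the log2 fold change of -0.031 had a 95% interval from -0.69 to 0.63, and it turned to 0.30 without control replicate 1. Acsl5, found on mitochondria and the endoplasmic reticulum, had 2899, 1789 and 2075 in the controls and 2349.7, 2235 and 2223 after anti-CD73 (log2 fold change 0.039, SE 0.18, or 0.24 without control replicate 1). Acsl6, known from brain and red cell precursors, had 683, 754 and 754 in the controls and 643, 609.9 and 943 after anti-CD73 (log2 fold change -0.024, SE 0.18, or -0.071 without control replicate 1). Its highest value came from anti-CD73 replicate 3, whose erythroid sum (34536) was the lowest of that group. Among the controls, replicate 1 had the lowest erythroid sum (31661, against 241987 and 240283) and also the lowest Acsl6. The part of erythroid cells in these values was not tested.

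Elongases add carbons in pairs to acyl-CoA, and the 4 that were tested lay below 0 with all 6 libraries, by a median of -0.41, or -0.19 without control replicate 1; Elovl5 turned to 0.12 without control replicate 1. Elovl1, which makes very long saturated chains for sphingolipids (ENSMUSG00000006390, mm10 chromosome 4, 118426874 to 118432953), had 1638, 1382 and 1504 in the controls and 1316, 1224 and 1144 after anti-CD73. Every treated library was below every control, with a log2 fold change of -0.30 (SE 0.12, adjusted p = 0.292). Elovl7, another elongase of saturated chains (ENSMUSG00000021696, mm10 chromosome 13, 108214326 to 108287109), had 331, 276 and 274 in the controls and 214, 152 and 249 after anti-CD73 (log2 fold change -0.54, SE 0.21, adjusted p = 0.284), and here too the groups were apart. Elovl6, which turns palmitate into stearate and is a classic target of the lipogenic factor SREBP-1, had 1919, 955 and 829.95 in the controls and 769.9, 823 and 812 after anti-CD73. The log2 fold change was -0.52 (SE 0.29, adjusted p = 0.435) with all libraries and -0.15 (adjusted p = 0.287) without control replicate 1. Elovl5, which lengthens polyunsaturated acids, had 2382, 1363 and 1353 in the controls and 1610.4, 1643 and 1214 after anti-CD73 (log2 fold change -0.15, SE 0.24). Of the remaining elongases, Elovl2 had 3 reads and Elovl4 had 4, all in controls, and Elovl3 had 15.

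Among the roles, desaturases had the largest median distance of control replicate 1 from the other controls, 0.96 on the log2 scale. Scd1, the stearoyl-CoA desaturase that makes oleate (ENSMUSG00000037071, mm10 chromosome 19, 44394450 to 44407709), had 985, 439.6 and 376 in the controls and 380.3, 389 and 384 after anti-CD73. Control replicate 1 was far above every other library, while the remaining 5 lay between 376 and 439.6. The log2 fold change was -0.51 (SE 0.33, adjusted p = 0.507) with it and -0.083 (adjusted p = 0.637) without it. Scd2, its neighbour on chromosome 19 and the isoform of many tissues outside liver (ENSMUSG00000025203, mm10 chromosome 19, 44293676 to 44306864), had 2271, 1214 and 1022 in the controls and 1047, 1123 and 733 after anti-CD73 (log2 fold change -0.57, SE 0.31, or -0.23 without control replicate 1). Scd3 had 0 reads and Scd4 had 10.

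Fads2, the delta-6 desaturase that opens the polyunsaturated pathway, followed the same pattern with 327, 189 and 148 in the controls and 132, 198 and 129 after anti-CD73 (log2 fold change -0.48, SE 0.32, or -0.16 without control replicate 1). Fads1, the delta-5 desaturase next to it on chromosome 19, had 594, 506 and 475 in the controls and 457, 484 and 469 after anti-CD73 (log2 fold change -0.15, SE 0.13, or -0.061 without control replicate 1). Fads3, also in that cluster, had 802, 749 and 859 in the controls and 769, 671 and 762 after anti-CD73 (log2 fold change -0.13, SE 0.12). Groups overlapped for all 5 desaturases. Their log2 fold changes were all below 0, with a median of -0.48, which was -0.13 without control replicate 1. Relative to the mean of the other controls, control replicate 1 was higher by 1.27 on the log2 scale for Scd1, 1.03 for Scd2 and 0.96 for Fads2. The same difference was 1.11 for Elovl6, 0.99 for Acsl4 and 0.96 for Acsl3, but -0.95 for Plin3, -0.90 for Pnpla6 and -0.83 for Agpat2. It was above 0 for 25 of the 41 tested members (median 0.18) and for 6300 of all 12262 genes (median 0.021). Fads6 had 4 reads in controls and 14 after anti-CD73.

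**Figure D4:**
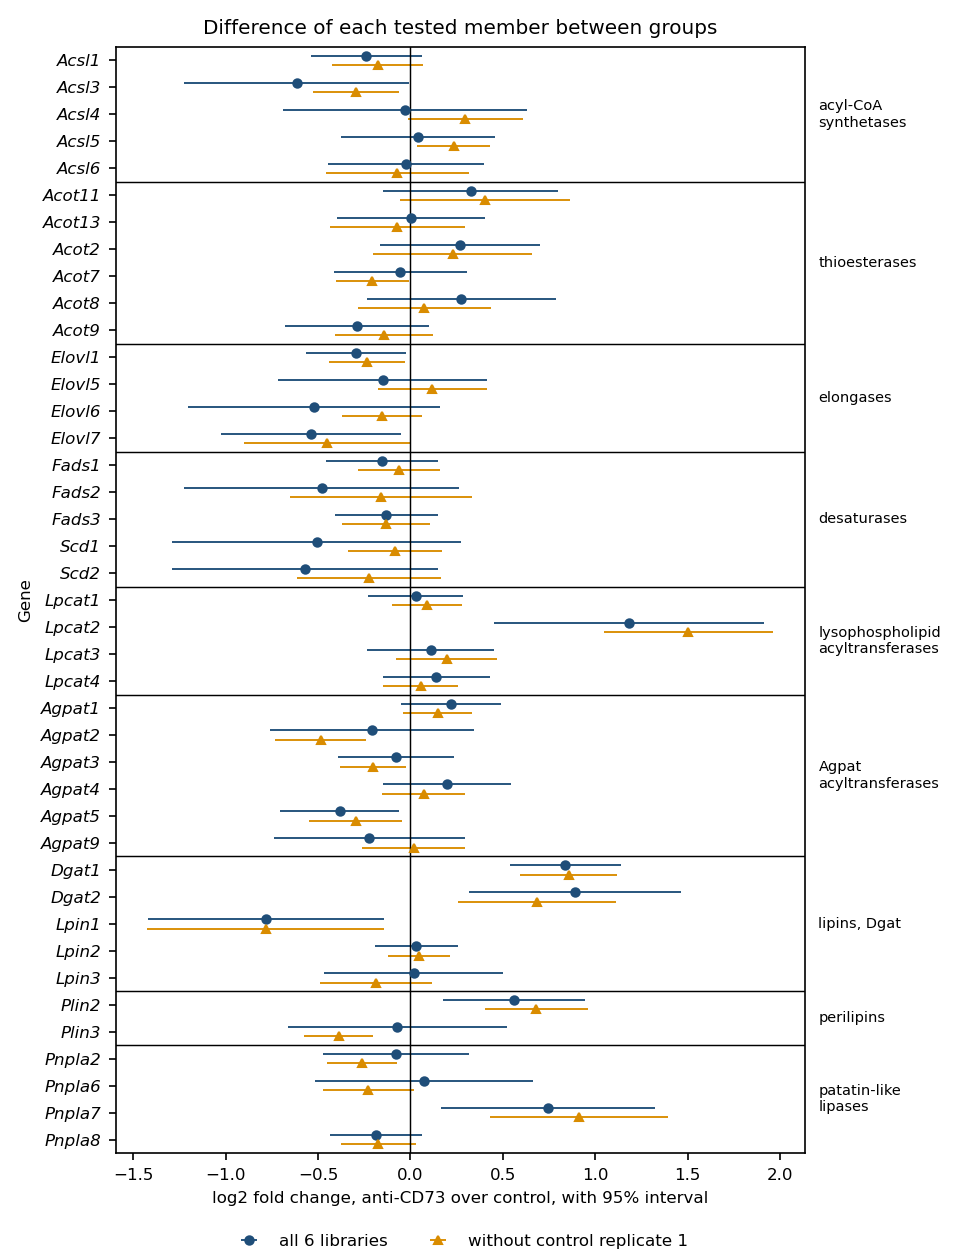
Log2 fold change of anti-CD73 over control on the log2(normalized count + 1) scale (x axis) with its 95% limma interval for the 41 tested members (y axis, by role), with all 6 libraries (circles) and without control replicate 1 (triangles). Dgat1 stays at 0.84 and 0.86, whereas Scd1 moves from -0.51 to -0.083.

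The Agpat family makes phosphatidic acid, the common precursor of phospholipids and triglyceride. Agpat5, a mitochondrial and endoplasmic reticulum enzyme (ENSMUSG00000031467, mm10 chromosome 8, 18846279 to 18884413), had 729, 612 and 606 in the controls and 521, 530.5 and 442 after anti-CD73, and its treated libraries all lay below its controls (log2 fold change -0.38, SE 0.14, adjusted p = 0.257, or -0.30 with adjusted p = 0.0878 without control replicate 1). Agpat1 lay the other way, with 1617, 1776 and 1993 in the controls and 2161, 2054 and 2037 after anti-CD73 and groups that did not overlap (log2 fold change 0.22, SE 0.11, adjusted p = 0.404). Agpat2, the isoform whose loss causes lipodystrophy, had 309.7, 509 and 597 in the controls and 396, 397 and 389 after anti-CD73. The treated libraries lay close together and between control replicate 1 and the other controls, so the log2 fold change was -0.21 (SE 0.24, adjusted p = 0.713) with that control and -0.48 (adjusted p = 0.0155) without it.

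Agpat3, an enzyme of the Golgi and endoplasmic reticulum, had 979, 1310.1 and 1225 in the controls and 1111, 1097 and 1095 after anti-CD73 (log2 fold change -0.078, SE 0.13, or -0.20 without control replicate 1). Agpat4 had 955, 1144 and 1358 in the controls and 1227, 1356 and 1349 after anti-CD73 (log2 fold change 0.20, SE 0.15, or 0.071 without control replicate 1). The gene listed as Agpat9, which RefSeq now names Gpat3 and which acts earlier, on glycerol-3-phosphate, had 1432, 986 and 769 in the controls and 899, 807 and 943 after anti-CD73 (log2 fold change -0.22, SE 0.22, or 0.018 without control replicate 1). Control replicate 1 was the lowest library for Agpat1, Agpat2, Agpat3 and Agpat4 and the highest for Agpat5 and Agpat9.

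Thioesterases cut acyl-CoA back to free fatty acid, and none of the 6 that were tested had an unadjusted p under 0.05 by limma. Acot9, of mitochondria, had 629.5, 417 and 511 in the controls and 421, 412 and 423 after anti-CD73 (log2 fold change -0.29, SE 0.17, or -0.14 without control replicate 1). Acot11, a thioesterase of brown fat with a lipid-binding domain, had 77.2, 57.0 and 75.6 in the controls and 84.6, 83.6 and 93.6 after anti-CD73, and Acot2, of the mitochondrial matrix, had 67.0, 79.8 and 66.6 in the controls and 90.2, 80.5 and 86.4 after anti-CD73; in both, all treated libraries were above all controls (log2 fold changes 0.33, SE 0.20, and 0.27, SE 0.19). Peroxisomal Acot8 had 101, 169 and 138 in the controls and 165, 172 and 148 after anti-CD73, with control replicate 1 lowest (log2 fold change 0.28, SE 0.22, or 0.076 without control replicate 1). Acot7, which prefers arachidonoyl-CoA, had 2091, 2720.3 and 3017 in the controls and 2647, 2317 and 2501 after anti-CD73 (log2 fold change -0.054, SE 0.15, or -0.21 without control replicate 1). Acot13 had 123, 142 and 145 in the controls and 136, 154 and 122 after anti-CD73 (log2 fold change 0.0036, 95% interval -0.40 to 0.40, or -0.071 without control replicate 1). The cytosolic and peroxisomal relatives that lie with Acot2 in a cluster on chromosome 12 were scarce: Acot1 had 24 reads, Acot3 had 1, Acot4 had 7, Acot5 had 0 and Acot6 had 5, while Acot10 had 11 and Acot12 had 1.

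In all, 23 members were below the filter, with no library above 6.51 normalized counts, and 4 of them (Acot5, Lpcat2b, Pnpla5 and Scd3) had 0 reads in all libraries, where a count of 0 allows up to 3 reads. Near-identical copies such as Acot1 and Acot2, Acot9 and Acot10, or the Scd genes can share reads, so their levels are uncertain. By RefSeq coordinates, 10 tested members overlap another protein-coding gene. They include Acsl3 with Utp14b, Lpcat2 with Capns2, Acot8 with Zswim3, Acot11 with Fam151a and Lpin1 with Ntsr2. Dgat1, Dgat2 and Scd1 overlap no other RefSeq gene. The shared stretch was 461 bases for Lpin1, 1015 for Lpcat2, 3738 for Acot11, 9777 for Acsl3 and 15106 for Acot8. The sources used here do not say if counting used strand, so reads in the shared bases of such pairs cannot be told apart.

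Other genes of fatty acid metabolism were taken from 6 lists, in which 95 genes were tested. Of these, 0 passed by limma with all 6 libraries, and 25 had an unadjusted p under 0.05 (14 higher, 11 lower), while edgeR called 0 and had 21 at that level. Of all genes, 15.5% by limma and 15.2% by edgeR were at that level. DESeq2 called 3 higher and 4 lower, and it called 2.85% of all genes higher and 1.93% lower. Without control replicate 1, 15 passed as higher and 15 as lower, in a test that called 11.9% and 10.3% of all genes. Fatty acid synthesis (18 tested, 0 called, median log2 fold change 0.10, or 1 called higher and 2 lower without control replicate 1) held Fasn, the synthase, at 9298, 7477 and 7473 in the controls and 8189, 8020.3 and 8617 after anti-CD73, a log2 fold change of 0.041 (95% interval -0.25 to 0.33, or 0.15 without control replicate 1). Srebf1, which encodes SREBP-1, had a log2 fold change of 0.16 (SE 0.12) and Acaca, which makes malonyl-CoA, 0.10 (SE 0.17). Without control replicate 1 these were 0.079 and 0.27. The 3 genes of smallest p in this list were Insig1 and Insig2, which retain the SREBP complex in the endoplasmic reticulum, and Mid1ip1, an activator of acetyl-CoA carboxylase. Insig1 had 1066, 779 and 612 in the controls and 378, 398 and 300.3 after anti-CD73 (log2 fold change -1.16, SE 0.22, adjusted p = 0.141). Insig1 passed without control replicate 1 (-0.95, adjusted p = 0.00443) and with DESeq2 on all 6 libraries (adjusted p = 0.000458). The log2 fold change was -0.45 for Insig2 (SE 0.13, or -0.41 with adjusted p = 0.0342 without control replicate 1) and 0.95 for Mid1ip1 (SE 0.33).

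Uptake and binding genes (10 tested, 0 called, median 0.17, or 4 called higher and 3 lower without control replicate 1) included Slc27a3 and Dbi. Slc27a3, of the fatty acid transport proteins, had 18.3, 15.2 and 16.5 in the controls and 41.8, 36.0 and 35.0 after anti-CD73 (log2 fold change 1.13, SE 0.26, or 1.19 with adjusted p = 0.0184 without control replicate 1). Dbi, the acyl-CoA binding protein, had 914, 1022 and 963 in the controls and 740.1, 767 and 724 after anti-CD73 (log2 fold change -0.38, SE 0.11, adjusted p = 0.188). Dbi passed without control replicate 1 (-0.42, adjusted p = 0.0112) and with DESeq2 on all 6 libraries (adjusted p = 0.0416). Cd36, the fatty acid translocase, had 945, 156 and 126 in the controls and 268, 519.9 and 241 after anti-CD73, so that control replicate 1 alone exceeded every treated library. Its log2 fold change was 0.28 (SE 0.73) with that control and 1.19 (adjusted p = 0.0217) without it.

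For beta-oxidation (26 tested, 0 called, median 0.034, or 1 called higher, 6 lower and a median of -0.064 without control replicate 1), Slc25a20, which carries acylcarnitine into mitochondria, had 219, 212 and 185 in the controls and 331, 404 and 316 after anti-CD73 (log2 fold change 0.76, SE 0.16, adjusted p = 0.151), with groups apart. Slc25a20 passed without control replicate 1 (0.81, adjusted p = 0.0065) and with DESeq2 on all 6 libraries (adjusted p = 0.0028). The peroxisomal thiolase gene Acaa1a had a log2 fold change of 0.69 (SE 0.24). Cpt1a, the gate to mitochondrial oxidation, had 625, 1278 and 951 in the controls and 714, 823 and 821 after anti-CD73 and overlapping groups (log2 fold change -0.22, SE 0.25, or -0.49 with adjusted p = 0.03 without control replicate 1). Glycerolipid and phospholipid assembly (20 tested, 0 called, median -0.082, or 3 called higher and 3 lower without control replicate 1) had Mboat1 at -0.63 (SE 0.20), Ptdss1, a phosphatidylserine synthase gene, at -0.30 (SE 0.10, or -0.30 with adjusted p = 0.0402 without control replicate 1) and Cds1, which commits phosphatidic acid to phospholipids, at 1.49 (SE 0.51, or 2.04 with adjusted p = 0.00519 without control replicate 1). Gpam, the mitochondrial enzyme that starts glycerolipid synthesis, had -0.17 (SE 0.18, or -0.29 without control replicate 1).

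The lipolysis and droplet list (14 tested, 0 called, median 0.11, or 4 called higher and 1 lower without control replicate 1) held Soat2, a cholesterol esterification enzyme, with 65.0, 84.9 and 57.6 in the controls and 118, 136 and 148 after anti-CD73 (log2 fold change 0.96, SE 0.21, adjusted p = 0.162). Soat2 passed without control replicate 1 (0.92, adjusted p = 0.0173) and with DESeq2 on all 6 libraries (adjusted p = 0.00769). Fitm2, which helps droplets bud, lay lower, with 426, 428 and 504 in the controls and 308, 286 and 329 after anti-CD73 (log2 fold change -0.56, SE 0.14, adjusted p = 0.166). As Soat2 did, Fitm2 passed without control replicate 1 (-0.60, adjusted p = 0.0112) and with DESeq2 on all 6 libraries (adjusted p = 0.0171). G0s2, the inhibitor of the lipase encoded by Pnpla2, had 214, 63.4 and 44.2 in the controls and 453, 232 and 172 after anti-CD73 (log2 fold change 1.62, SE 0.60, adjusted p = 0.269, or 2.29 with adjusted p = 0.00402 without control replicate 1). Its control replicate 1 lay above 1 treated library, as it also did for Pparg. The hormone-sensitive lipase gene Lipe had 0.25 (SE 0.30), the monoacylglycerol lipase gene Mgll -0.097 (SE 0.56), and Hilpda, a hypoxia-induced inhibitor of Pnpla2, -0.013 (SE 0.14). Without control replicate 1 these were -0.055, -0.024 and 0.091. In the PPAR list (7 tested, 0 called, median 0.17, or 2 called higher and a median of 0.052 without control replicate 1), Pparg had 92.4, 12.7 and 18.7 in the controls and 102, 109 and 63.8 after anti-CD73 (log2 fold change 1.62, SE 0.68, or 2.46 with adjusted p = 0.00248 without control replicate 1). Angptl4, a PPAR target that inhibits lipoprotein lipase, had 788, 685 and 657 in the controls and 931, 965 and 1011 after anti-CD73, with groups apart (log2 fold change 0.45, SE 0.12, adjusted p = 0.178). Angptl4 passed without control replicate 1 (0.53, adjusted p = 0.00485) and with DESeq2 on all 6 libraries (adjusted p = 0.0275). Rxra, the partner receptor gene, had 0.16 (SE 0.12, or 0.077 without control replicate 1).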

How the data were processed

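The deposited table of the tumour libraries holds gene counts that the authors had normalized with DESeq, per the labels (a signal on a count scale); dividing each library by its smallest step, the inverse of a size factor, gave whole reads for 100% of values (within 0.01). Bowtie 0.12.7 and mm10 are named in the submitters' processing notes, with no role stated; the sources used here do not give the counting tool or annotation. Libraries were grouped by their labels (3 controls, 3 anti-CD73).

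Genes with a mean of at least 10 normalized counts were tested with limma 3.58.1 (R 4.3.3) on log2(normalized count + 1), a scale that understates the change of low genes, with a mean trend and Benjamini-Hochberg adjustment over all 12262 genes at 0.05. Recovered reads were also tested with edgeR 4.0.16 (quasi-likelihood) and DESeq2 1.42.0. Further alternatives changed the pseudocount (0.5, 8), the filter (none, or a mean of 50), the scaling (TMM) and the libraries (each left out in turn), or added a replicate block. The procedure was tested on simulated data. Those data had the same spread setting for every gene and no library that stood apart, so they do not cover a case such as control replicate 1. The 924 rows without a symbol could not be matched to the member rule. Coordinates and promoters are from RefSeq on GRCm38.p6, matched by gene ID.

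The members, pathway lists and marker lists were chosen with earlier results of these data known. Values in every library are given for each tested member, and members under the filter by their reads. Of each pathway list, the 3 genes of smallest p are named, except some that are not reported here, with Srebf1, Fasn, Acaca, Cpt1a, Cd36, Gpam, Lipe, Mgll, Pparg and Hilpda.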

Additional observations from a re-analysis of the deposited data

How the results depend on the processing

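Of the 41 tested members, 0 passed with all 6 libraries, and 0 passed under either other pseudocount, no filter, the higher filter, TMM scaling or edgeR. DESeq2 called 3, and edgeR without control replicate 1 called 7. Leaving out 1 library gave 0 to 7 members, 7 of them without control replicate 1 and 0 without any other. For the pathway lists the count of 0 became 7 with DESeq2 and 30 with edgeR without control replicate 1, with 0 to 30 over the libraries left out, again 30 without control replicate 1. The median over the members, -0.054, was 0.023 with no filter (60 members with a read) and -0.082 with DESeq2, and ranged from -0.080 to -0.0056 over the libraries left out, against an SD of 0.025 between the anti-CD73 libraries. The causes were not tested.

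With the replicate block by title number, 0 members and 0 list genes were called and the median was -0.054. With the replicate block by description number, 6 members (5 higher, 1 lower) and 18 list genes were called, with 8.94% of all genes called higher and 5.58% lower, and the median was -0.082; control replicate 1 and anti-CD73 replicate 2 have no partner there, so they carry no weight by construction. Deviations of libraries with the same title number correlated at 0.19, -0.096 and 0.26 for numbers 1, 2 and 3. Libraries of numbers 1 and 3 correlated best with their own number, and those of number 2 did not. For the same description number the correlations were -0.16 (control replicate 2 with anti-CD73 replicate 1) and 0.26 (replicates 3). The deviations sum to 0 within each group by construction, so these few values cannot decide if either pairing holds.

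Of 68 single genes, 19 changed sign under at least 1 of 16 alternatives, none with a reported size above 0.28. With edgeR, values turned to 0.020 for Acsl6, -0.23 for Cd36 and 0.14 for Mgll. With DESeq2, values turned to 0.0087 for Acsl6, -0.0097 for Lpin3, -0.25 for Cd36 and 0.14 for Mgll. With TMM scaling, values turned to 0.0068 for Hilpda. With the replicate block by description number, values turned to -0.20 for Pnpla6, -0.15 for Acot13, 0.046 for Acsl6, -0.15 for Lpin3, 0.081 for Agpat9, 0.24 for Acsl4, 0.042 for Elovl5, -0.10 for Lipe and 0.12 for Hilpda. With edgeR without control replicate 1, values turned to -0.21 for Pnpla6, -0.054 for Acot13, -0.19 for Lpin3, 0.028 for Agpat9, 0.32 for Acsl4, 0.15 for Elovl5, -0.098 for Lipe, 0.19 for Mgll and 0.099 for Hilpda. Over the libraries left out in turn, values ran from -0.080 to 0.083 for Acot13, -0.21 to 0.059 for Acot7, -0.25 to 0.30 for Acsl4, -0.11 to 0.24 for Acsl5, -0.22 to 0.093 for Acsl6, -0.20 to 0.0078 for Agpat3, -0.43 to 0.018 for Agpat9, -0.25 to 1.19 for Cd36 and -0.49 to 0.024 for Cpt1a. They ran from -0.29 to 0.12 for Elovl5, -0.011 to 0.15 for Fasn, -0.14 to 0.091 for Hilpda, -0.055 to 0.57 for Lipe, -0.0086 to 0.089 for Lpcat1, -0.19 to 0.19 for Lpin3, -0.59 to 0.46 for Mgll, -0.39 to 0.11 for Plin3, -0.26 to 0.044 for Pnpla2 and -0.23 to 0.25 for Pnpla6. The depth leaves genes under 10 normalized counts untested.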
